A study of Mus musculus with 14 samples.

Results

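The Fat and Dachsous genes encode giant atypical cadherins, and 7 protein-coding genes of this system were examined among the 21887 of the mouse annotation: Fat1, Fat2, Fat3, Fat4, Dchs1, Dchs2 and Fjx1. Fat3 was selected because it carried many accessible regions in liver metastasis lines of the Nfibf/f genotype in these same data, so its own values are given as a description without a test. The other 6 genes were taken as its relatives. Each gene was represented by its body on GRCm38 plus 10 kb on either side.

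Accessible chromatin had been profiled by ATAC-seq, in which a transposase cuts and tags open DNA, in 7 mouse lines of small cell lung cancer, a neuroendocrine tumor, with 2 libraries per line. The Nfibf/f group comprised 4 lines of genotype RPR2;Nfibf/f: from liver metastases, 1398M1 and 1399M4, and from lung tumors, 1398P2 and 1399P1. The RPR2 group comprised 3 lines: 1373M1 from a liver metastasis, and 12N1G and N2N1G from lymph node metastases. All 7 lines share the RPR2 background, which in this field denotes loss of Rb1, Trp53 and Rbl2, while Nfibf/f denotes a conditional Nfib allele, Nfib being a transcription factor that promotes spread of such tumors. The labels name neither the Cre driver, the age of the animals nor whether a line is 1 clone, and the lymph node and lung sites each occur in 1 genotype only, so that genotype and site can be told apart only in liver metastases, where RPR2 has 1 line. The line was the replicate, because the labels do not say that its 2 libraries came from separate cultures. The names pair 1398M1 with 1398P2 and 1399M4 with 1399P1 by number, and whether the lines of a pair share an animal was not given.

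The lists held 65009 to 84220 peaks in 13 libraries and 33558 in replicate 2 of line 1398P2, the library of lowest depth, with a background of 0.507 fragments per bp. At the targeted gene Nfib the scaled number of regions was 9.38, 9.92, 7.41 and 13.2 in the lines 1398M1, 1399M4, 1398P2 and 1399P1, against 15.2, 19.0 and 17.6 in 1373M1, 12N1G and N2N1G, which does not test the deletion itself. A gene-end peak, within 1 kb, occurred at 9 of 10 neuroendocrine genes in all 14 libraries and at Neurod1 in 13. Of the lists of other cell types, 1 of 6 hepatocyte genes (Apoa1), 2 of 6 leukocyte genes (Spi1 among them), 2 of 6 genes of stroma and endothelium (Col1a1 and Kdr) and 3 of 6 of lung epithelium (Sftpc, Foxj1 and Nkx2-1) had such a peak in every library. Alb, Afp and Serpina1a of hepatocytes, Ptprc of leukocytes and Pecam1 of endothelium had one in 0 of 14. Some split by genotype, with peaks at Hnf4a in 4 of 8 Nfibf/f and 0 of 6 RPR2 libraries and at the endothelial Cdh5 in 0 of 8 and 5 of 6. The part of other cells in the results was not tested.

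Fat and Dachsous proteins meet across the contact between neighbouring cells. Fat4 binds Dchs1, and the Golgi kinase Fjx1, the relative of Four-jointed of Drosophila, phosphorylates their cadherin repeats and so tunes the bond. In Drosophila this system orients cells within a sheet, which is called planar cell polarity, and feeds the Hippo pathway of growth control. In mammals Fat1 and Fat3 act on the actin cytoskeleton through their cytoplasmic tails, Fat3 shapes the dendrites of retinal amacrine neurons, and FAT1 is recurrently mutated in human squamous carcinomas.

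Peaks of all libraries that overlapped were merged into regions, and a region was open in a line when both libraries had a peak in it. The 7 genes held 126 regions, and 83 of them were open in 1 line or more. Fat3 held 37 of the 83, Fat1 15, Fat4 10, Dchs2 9, Fat2 8, Dchs1 3 and Fjx1 1. Only 7 of the 83, or 8.43%, were open in all 7 lines, and 6 of the 46 outside Fat3, or 13%, against 19.1% of the 79813 open regions in the windows of all protein-coding genes. The 7 were 2 regions each in Fat1, Fat2 and Dchs1 and 1 in Fat3. Of the 46 regions of the 6 relatives, 5 had no peak in any RPR2 library (10.9%, against 23.7% of all such regions) and 7 had none in any Nfibf/f library (15.2%, against 10.5%). Fat3, chosen with these values in view, had 19 and 2 of its 37. Neither genotype had a region of these genes that was open in every one of its lines and closed in every line of the other, where 0.692% of all regions were open in every Nfibf/f line and closed in every RPR2 line, and 1.12% the reverse. Among the relatives, regions open in 1 line alone, with no peak in any library of the others, numbered 0 in 1398M1, against 1.41% of all, 1 in 1399M4 (2.17% of the 46, against 5.86%) and 2 in 1373M1 (4.35%, against 2.59%). Fat3 had 5 open in 1398M1 alone and 4 in 1399M4 alone, the liver lines that led to its choice. None of the 83 was open in 1398P2, 1399P1, 12N1G or N2N1G alone, against 0.197%, 1.48%, 0.565% and 0.416% of all regions, and 0 were open in both lung tumor lines alone, against 0.284%. Regions open in both lymph node lines alone numbered 3 among the relatives (6.52% of the 46, against 2.42% of all) and 0 in Fat3.

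**Figure D1:**
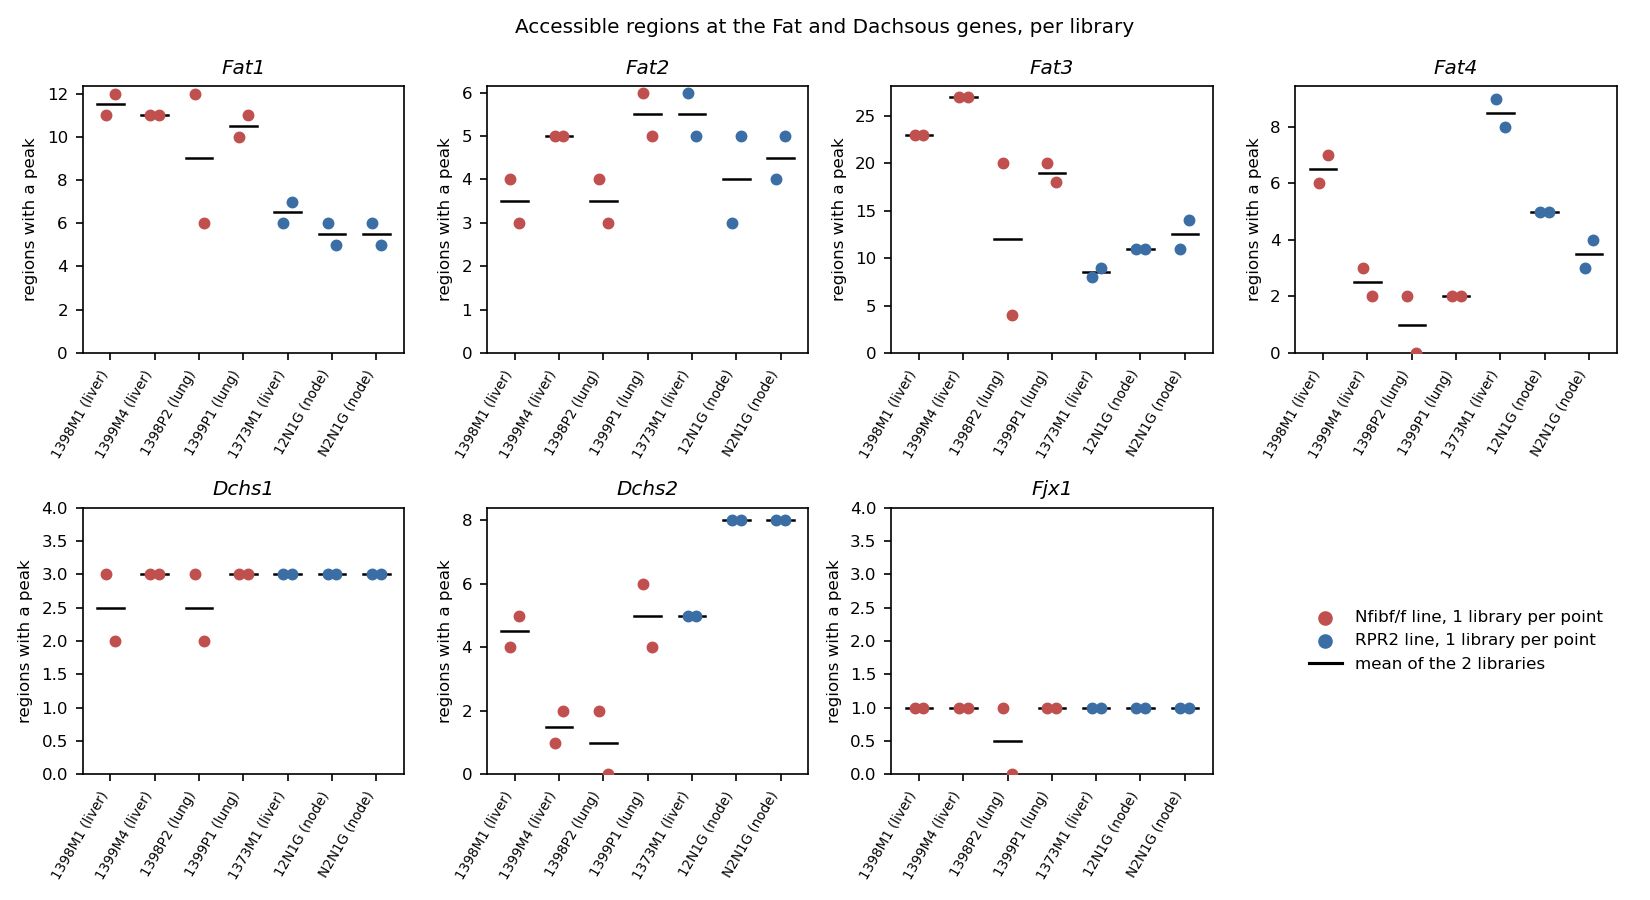
Number of regions with a peak at each gene (vertical axis, counting regions open in at least 1 line) in each of the 14 libraries, with Nfibf/f lines in red on the left and RPR2 lines in blue on the right; points are libraries and black bars the mean of the 2 libraries of a line. Fat1 lay between 9 and 11.5 in the means of the 4 Nfibf/f lines, above the 5.5 to 6.5 of the 3 RPR2 lines, and the points of replicate 2 of 1398P2 lay at 6 for Fat1 and 4 for Fat3.

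Fat3 (gene ID 270120, chromosome 9, 15910189 to 16502681, minus strand) spans 592.5 kb. Its regions numbered 23 in both libraries of 1398M1 and 27 in both libraries of 1399M4, the liver lines of the Nfibf/f genotype. In the lung lines of that genotype there were 20 and 4 in 1398P2 and 20 and 18 in 1399P1. RPR2 libraries had 8 and 9 in 1373M1, 11 and 11 in 12N1G, and 11 and 14 in N2N1G. The means of the lines did not overlap after scaling by the total of a line, with 14.8 to 25.5 in Nfibf/f lines and 8.59 to 12.6 in RPR2 lines, an order found in 8.71% of genes. Before scaling, line 1398P2 stood at 12.0, below the 12.5 of N2N1G, and its 2 libraries differed most.

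The Nfibf/f lines averaged 20.2 ± 6.40 Fat3 regions (SD, n = 4) and the RPR2 lines 10.7 ± 2.02 (SD, n = 3). By site, the means were 25 in Nfibf/f liver lines (n = 2), 15.5 in Nfibf/f lung lines (n = 2), 8.5 in the RPR2 liver line and 11.8 in RPR2 lymph node lines (n = 2). The log2 difference of Nfibf/f minus RPR2 on the scale of log2(scaled regions + 0.5) was 0.85 ± 0.22 (SE), and it was 0.60 without replicate 1 and 0.93 without replicate 2 of line 1398P2. Since Fat3 was picked for this pattern, these values carry no test.

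Fat3 regions lay all along the gene, from its start site to 558.8 kb downstream of it, and all 37 were inside the gene body. Only the region at chr9:16107204-16108265 was open in all 7 lines, with a peak in 14 of 14 libraries. Of the 37 regions, 19 had no peak in any RPR2 library, and of these 13 were open in 1 line, 5 in 2 lines and 1 in 3 lines. Conversely 2 of the 37 had no peak in any Nfibf/f library. The region open in 3 lines was chr9:16137282-16137982, with peaks in 7 of 8 Nfibf/f libraries and 0 of 6 RPR2 libraries. It was the only Fat3 region that was open in every Nfibf/f line other than 1398P2 and closed in every RPR2 line, a pattern shown by 1.45% of all regions.

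The liver lines 1398M1 and 1399M4 had similar totals at Fat3 but partly different regions. Of 22 regions open in 1398M1 and 27 open in 1399M4, 15 were shared, which is 68.2% and 55.6% of each. A further 5 were open in 1398M1 alone and 4 in 1399M4 alone, which are all 5 regions of the 7 genes open in 1398M1 alone and 4 of the 5 open in 1399M4 alone. No region was open in both of these liver lines and closed in the other 5 lines, while 0.149% of all regions had that pattern. Line 1399M4 shared 17 regions with the lung line 1399P1, which is 63% of its own and 94.4% of the 18 of 1399P1. The lymph node lines 12N1G and N2N1G shared 8 of 10 and 10.

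Fold enrichment was ranked within each library, so that a percentile of 100 marks its strongest peak. By mean rank, counting an absent peak as 0, the leading Fat3 regions were chr9:16120268-16120869 at 65.4, chr9:15964200-15964839 at 64.0 and chr9:16107204-16108265 at 62.1. The region at chr9:15964200-15964839 ranked at 90.3 and 91.0 in 1398M1, 95.6 and 99.3 in 1399M4, 96.8 and 70.4 in 1398P2, and 92.4 and 93.4 in 1399P1. In RPR2 libraries it ranked at 25.7 and 42.8 in 12N1G and 66.1 and 32.5 in N2N1G, and it had no peak in 1373M1. Its ranks thus did not overlap between genotypes, as a description of ranks that helped to choose the gene. The opposite order was seen at chr9:16221798-16222292, which ranked between 37.6 and 69.3 in the 4 Nfibf/f libraries with a peak and between 77.6 and 97.2 in all 6 RPR2 libraries. The share of all regions with either order was not determined, so neither can be called unusual. Adjacent regions could differ: chr9:16211547-16212236 had peaks in 8 of 8 Nfibf/f and 2 of 6 RPR2 libraries, and chr9:16212295-16212900 close beside it in 0 of 8 and 4 of 6.

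**Figure D2:**
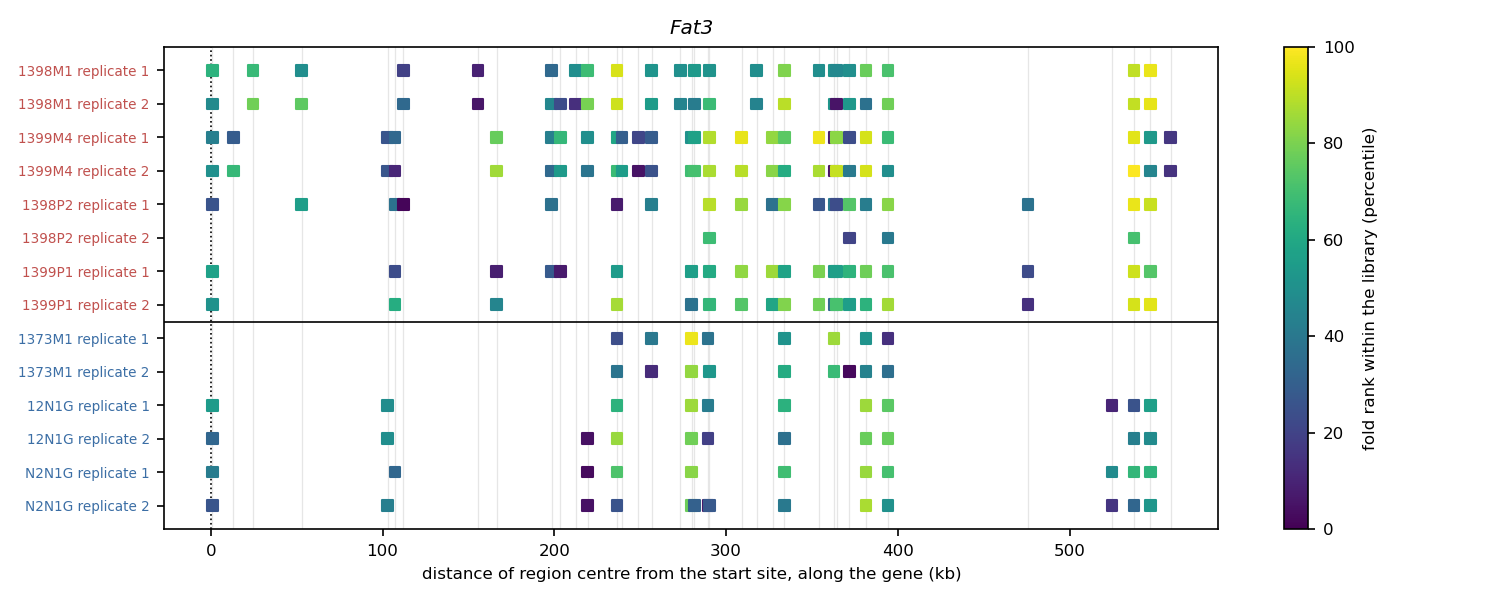
Position of the 37 open regions of Fat3 (horizontal axis, distance of the region centre from the start site along the gene, in kb) in each library (rows, Nfibf/f in red above the line and RPR2 in blue below it). A square marks a peak and its colour the rank of its fold enrichment within the library in percentiles; squares are denser in the upper rows, and the region at 394.3 kb has a square in every row.

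The start of Fat3 lay in the broad region chr9:16499687-16502672. It had a peak in 7 of 8 Nfibf/f libraries and 4 of 6 RPR2 libraries, being absent in replicate 2 of 1398P2 and in both libraries of 1373M1. Its rank was 25.8 to 64.3 in Nfibf/f and 26.2 to 54.6 in RPR2 libraries with a peak. The promoter window, 250 bases before to 50 bases after the start site (RefSeq, GRCm38.p6, chr9:16502005-16502304, minus strand), is shown because peaks covered it in those same 11 libraries, a combination found in 0.265% of 32851 promoter windows. That combination was read from this window itself, in a gene chosen from these data, so its share is a description and no test. One of the libraries without a peak, replicate 2 of 1398P2, had the fewest peaks. Capitals mark TTGGC or its reverse complement GCCAA, the short element bound by NFI factors.
Fat3 promoter: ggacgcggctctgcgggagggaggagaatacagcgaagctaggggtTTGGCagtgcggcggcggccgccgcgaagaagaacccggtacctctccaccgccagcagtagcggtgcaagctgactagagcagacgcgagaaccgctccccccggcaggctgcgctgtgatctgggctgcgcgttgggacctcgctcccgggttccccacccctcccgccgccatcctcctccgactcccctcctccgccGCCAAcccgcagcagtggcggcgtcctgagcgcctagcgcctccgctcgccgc
The window is rich in CpG, with 35 CpG dinucleotides, 71.3% GC and an observed over expected CpG ratio of 0.93. It held 2 matches to TTGGC on either strand, and 46.7% of all promoter windows held at least 1. The full NFI palindrome, TTGGC and GCCAA with 5 bases between them, was found in 0.0365% of windows and in none of the 5 windows matched among these genes, which were those of Fat1, Fat2, Fat3, Fat4 and Dchs2. Neither CAGCTG (in 16.3% of windows) nor TGANTCA (in 7.81%) occurred in these 5 windows. Of all windows with a CpG ratio of at least 0.6, 76.8% had a peak in all 14 libraries.

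Fat1, a close relative of Fat3 that also recruits actin regulators, showed the same direction and was the one relative to pass the test. Its lines 1398M1, 1399M4, 1398P2 and 1399P1 had 11.5, 11, 9.0 and 10.5 regions, against 6.5 in 1373M1, 5.5 in 12N1G and 5.5 in N2N1G. Every Nfibf/f line lay above every RPR2 line. Fat1 averaged 10.5 ± 1.08 regions in Nfibf/f lines (SD, n = 4) and 5.83 ± 0.58 in RPR2 lines (SD, n = 3). The log2 difference was 0.79 ± 0.14 (SE; limma adjusted p = 0.0433 over 7070 genes), a 1.73-fold higher number. The background for a higher number in Nfibf/f lines was 0.976% of genes called, and 8.71% of genes had all Nfibf/f lines above all RPR2 lines.

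The Fat1 call depended on which lines entered the fit. It was lost on leaving out any 1 of 6 lines, with limma adjusted p values between 0.0503 without 1398M1 and 0.157 without 12N1G, and stayed without 1373M1 (limma adjusted p = 0.0215). The log2 difference itself stayed between 0.65 and 0.87 in all 33 alternatives.

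Fat1 (gene ID 14107, chromosome 8, 44933100 to 45052257, plus strand) held its invariant regions near the start of its body. The regions chr8:44934843-44936224 and chr8:44937244-44938656 had a peak in all 14 libraries, at mean ranks of 30.5 and 57.5. Further along, chr8:44963060-44964350 and chr8:45004362-45004853 had a peak in 8 of 8 Nfibf/f libraries and 2 of 6 RPR2 libraries, both of 1373M1. At the first of these the rank was 20.1 to 89.9 in Nfibf/f and 2.1 and 13.2 in 1373M1. The regions chr8:44956803-44958045, chr8:44970588-44971500, chr8:44991675-44992055 and chr8:45011800-45012161 had peaks in 5, 7, 6 and 2 Nfibf/f libraries and in no RPR2 library. They were 4 of the 15 open regions of Fat1, and 23.7% of all open regions in gene windows likewise had no RPR2 peak. In the other direction chr8:45028027-45028582 was open in the lymph node lines alone (0 of 8 and 4 of 6 libraries), a pattern of 2.42% of all regions. The highest mean rank, 68.1, was that of chr8:44998642-44999323, with a peak in 7 of 8 Nfibf/f and 6 of 6 RPR2 libraries. The third in mean rank, 50.1, was chr8:44947785-44949200, with one in 8 of 8 and 5 of 6. The region just past the end of the body, chr8:45052288-45052612, had one in 6 of 8 and 1 of 6.

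The promoter windows tabulated for Fat1 and Fat2 (chr8:44949958-44950257 and chr11:55312208-55312507) lie inside the gene bodies and had no peak in any library. They held 2 and 4 CpG dinucleotides, ratios of 0.15 and 0.28, and 1 match each to the TEAD element GGAATG, which 14.7% of windows hold on either strand.

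Fat2, a cadherin known in Drosophila for the collective migration of follicle cells, did not pass the test. It had 3.5, 5.0, 3.5 and 5.5 regions in 1398M1, 1399M4, 1398P2 and 1399P1, against 5.5, 4.0 and 4.5 in 1373M1, 12N1G and N2N1G. The groups overlapped, at 4.38 ± 1.03 in Nfibf/f (SD, n = 4) and 4.67 ± 0.76 in RPR2 (SD, n = 3), and the log2 difference was -0.10 ± 0.16 (SE; limma adjusted p = 0.772). Fat2 (gene ID 245827, chromosome 11, 55250609 to 55337505, minus strand) had peaks in all 14 libraries at chr11:55240515-55241368, outside the body, and at chr11:55274561-55275238, with mean ranks of 75.7 and 66.6. One region, chr11:55301531-55302119, had a peak in 1 of 8 Nfibf/f libraries and 6 of 6 RPR2 libraries, and chr11:55342817-55343489 in 5 of 8 and 0 of 6. At its gene end chr11:55250738-55250961 had a peak in 1 of 8 Nfibf/f and 0 of 6 RPR2 libraries.

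Fat4, the receptor of the Dachsous ligands and the nearest mammalian relative of Drosophila Fat, ranged more widely within each genotype than its means differed between them, and did not pass the test. Lines 1398M1, 1399M4, 1398P2 and 1399P1 had 6.5, 2.5, 1.0 and 2.0 regions, against 8.5 in 1373M1, 5.0 in 12N1G and 3.5 in N2N1G. The liver lines 1398M1 and 1373M1 were the highest of their genotypes, and the groups overlapped. Fat4 averaged 3.00 ± 2.42 in Nfibf/f lines (SD, n = 4) and 5.67 ± 2.57 in RPR2 lines (SD, n = 3), and the log2 difference was -0.98 ± 0.44 (SE; limma adjusted p = 0.239).

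Lines 1398M1 and 1373M1 shared Fat4 regions (gene ID 329628, chromosome 3, 38884667 to 39011992, plus strand) that no other line had open, at chr3:38923213-38923773, chr3:38946558-38947031 and chr3:38962324-38962875. Line 1373M1 alone had 2 more open, at chr3:38919109-38919382 and chr3:38983611-38984045. A region 6.1 kb past the start site, chr3:38892623-38893483, had peaks in 2 of 8 Nfibf/f libraries, both of 1398M1, and in 6 of 6 RPR2 libraries.

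Around the tabulated Fat4 start site the peaks stood on either side of the promoter window, which lies inside the gene body. The upstream region chr3:38885169-38886774 had a peak in 7 of 8 Nfibf/f and 6 of 6 RPR2 libraries, and the downstream region chr3:38887086-38888497 in 7 of 8 and 4 of 6. The window itself (RefSeq, GRCm38.p6, chr3:38886690-38886989, plus strand) was reached by a peak in 1 of 8 and 1 of 6. It is printed to show the stretch between both regions, with TTGGC or GCCAA in capitals.
Fat4 promoter: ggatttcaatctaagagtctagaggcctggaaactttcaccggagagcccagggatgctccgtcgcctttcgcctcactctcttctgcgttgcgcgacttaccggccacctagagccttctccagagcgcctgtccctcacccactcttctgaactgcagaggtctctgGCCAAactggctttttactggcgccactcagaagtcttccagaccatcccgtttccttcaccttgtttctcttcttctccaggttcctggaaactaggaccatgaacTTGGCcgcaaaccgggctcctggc
It had 13 CpG dinucleotides, a CpG ratio of 0.59 and 2 TTGGC matches. Of windows with a ratio below 0.6, 8.67% had a peak in all 14 libraries and 68.7% had one in none.

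Dchs1 encodes the ligand of Fat4, and its number of regions varied little. Its 3 open regions all had a peak in each library of 5 lines, and 1398M1 and 1398P2 had 2.5 regions on average. The means were 2.75 ± 0.29 in Nfibf/f lines (SD, n = 4) and 3.00 ± 0.00 in RPR2 lines (SD, n = 3). Dchs1 was not tested, because its mean over all lines was below the 3 regions that the test required. Dchs1 (gene ID 233651, chromosome 7, 105752989 to 105788355) had the highest mean ranks of these genes. The region chr7:105743689-105744730 ranked at a mean of 92.9 and chr7:105751542-105752664, beside a gene end, at 86.8, and each was present in 14 of 14 libraries. The region at the other end, chr7:105786673-105788209, had a peak in 6 of 8 Nfibf/f and 6 of 6 RPR2 libraries, and ranked at 7.7 to 26.3 in Nfibf/f and 22.9 to 68.7 in RPR2 libraries.

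Dchs2, the second Dachsous cadherin, ran opposite to Fat1 and Fat3 but did not pass the test. Lines 1398M1, 1399M4, 1398P2 and 1399P1 had 4.5, 1.5, 1.0 and 5.0 regions, against 5.0 in 1373M1, 8.0 in 12N1G and 8.0 in N2N1G. After scaling every Nfibf/f line was below every RPR2 line, as in 11.7% of genes, although 1399P1 and 1373M1 were level before scaling. Dchs2 averaged 3.00 ± 2.04 regions in Nfibf/f lines (SD, n = 4) and 7.00 ± 1.73 in RPR2 lines (SD, n = 3). The log2 difference was -1.302 ± 0.396 (SE; limma adjusted p = 0.110), and 0.438% of genes were called lower in Nfibf/f lines. Over all 32 alternatives it stayed negative, between -1.73 and -1.04, with limma adjusted p values of 0.0712 to 0.354.

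Dchs2 regions (gene ID 100534287, chromosome 3, 83126944 to 83363029, plus strand) were fewest in 1399M4 and 1398P2. The regions chr3:83155522-83156048 and chr3:83212003-83212616 had peaks in both libraries of 1398M1 and 1399P1 and in no library of 1399M4 or 1398P2, and in 6 of 6 RPR2 libraries. The first of them ranked at 13.3 to 69.7 in Nfibf/f and 45.1 to 91.0 in RPR2 libraries. The regions chr3:83117438-83117969 and chr3:83136188-83137134, or 2 of the 9 open regions of Dchs2, were open in the lymph node lines alone. That pattern was shown by 2.42% of all regions. The most widespread one, chr3:83286930-83287361, had peaks in 7 of 8 and 6 of 6 libraries at a mean rank of 67.4.

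The Dchs2 promoter window differed between the genotypes in whether a peak reached it. A peak reached it in 0 of 8 Nfibf/f libraries and 6 of 6 RPR2 libraries, a combination shown by 0.113% of 32851 windows, or 37 windows. The merged region that covers it, chr3:83127122-83129227, ranked low where it had a peak. Its ranks were 6.5 to 18.0 in Nfibf/f and 8.9 to 39.5 in RPR2 libraries. This region is wider than the window and was present in 5 of 8 Nfibf/f and 6 of 6 RPR2 libraries, because peaks of 1398M1, 1398P2 and 1399P1 began 351 to 1056 bp beyond the window. The sequence (RefSeq, GRCm38.p6, chr3:83127277-83127576, plus strand) is shown for that difference, and held none of the motifs searched.
Dchs2 promoter: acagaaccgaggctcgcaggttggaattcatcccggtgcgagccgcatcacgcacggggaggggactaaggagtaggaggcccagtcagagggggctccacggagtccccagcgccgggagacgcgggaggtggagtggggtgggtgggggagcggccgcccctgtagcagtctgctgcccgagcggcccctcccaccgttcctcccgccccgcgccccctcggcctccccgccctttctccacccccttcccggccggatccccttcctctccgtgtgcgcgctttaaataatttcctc
It had 27 CpG dinucleotides, 69.7% GC and a CpG ratio of 0.75. The window was noticed among 5 examined, and no test was made of it.

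**Figure D3:**
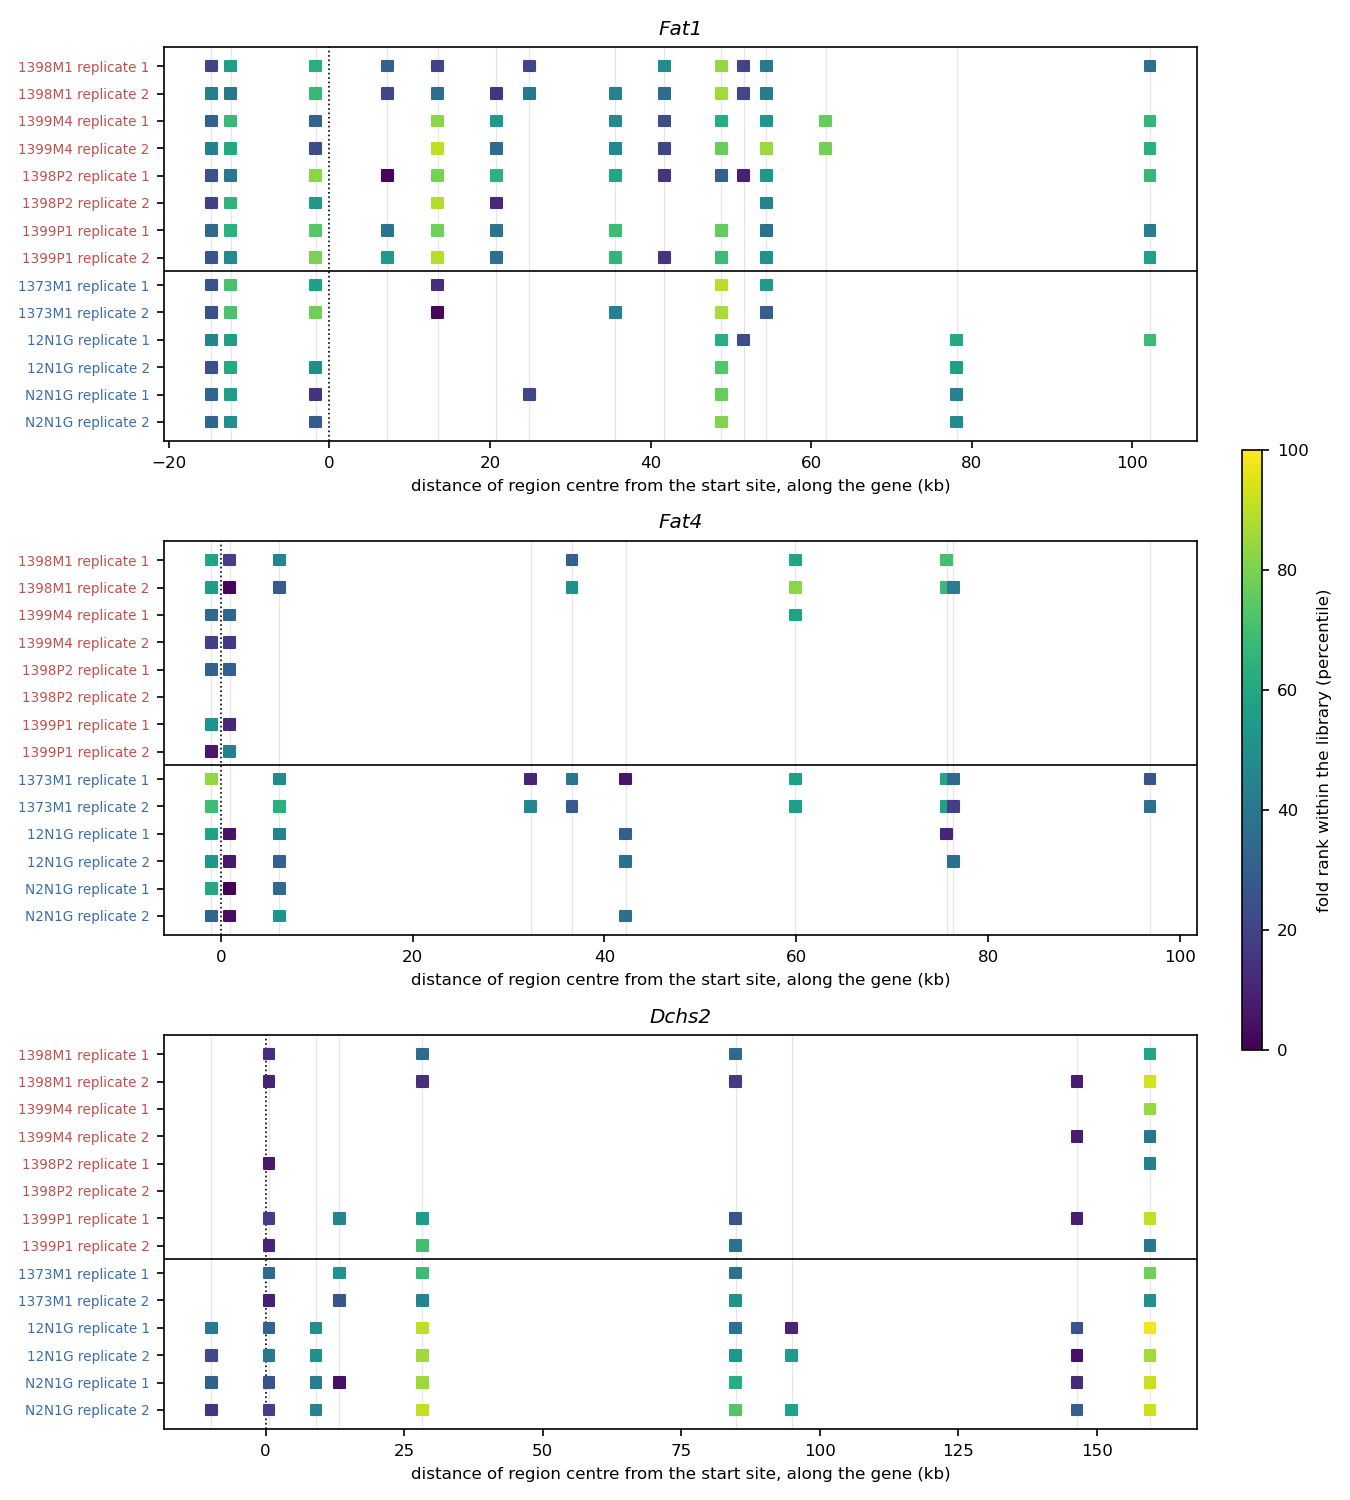
Open regions of Fat1, Fat4 and Dchs2 (horizontal axes, distance of the region centre from the tabulated start site along the gene, in kb) in each library (rows, Nfibf/f in red above the line and RPR2 in blue below it), with the rank of fold enrichment within the library as colour. Fat1 has more squares per row in the upper rows, Dchs2 more in the lower rows, and the Fat4 squares beyond 30 kb lie mostly in the rows of 1398M1 and 1373M1.

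Fjx1, the kinase that modifies Fat and Dachsous cadherins, had 1 open region, chr2:102450278-102452298, across a gene end (gene ID 14221, chromosome 2, 102449366 to 102451792). It had a peak in 7 of 8 Nfibf/f and 6 of 6 RPR2 libraries, lacking one in replicate 2 of 1398P2, and ranked at 38 to 64.2 in Nfibf/f and 33.4 to 64.0 in RPR2 libraries. The regions chr2:102457901-102458154 and chr2:102460559-102460827, outside the body, had a peak in 0 of 8 Nfibf/f and 1 of 6 RPR2 libraries each. With 1 open region, Fjx1 could not be tested.

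Between the genotypes, 1 of the 4 relatives with enough regions was called, Fat1, where 1.41% of all 7070 genes were called in either direction. Per 100 kb of window the scaled numbers of the Nfibf/f lines ranged from 6.65 to 8.16 at Fat1 and from 2.42 to 4.16 at Fat3, against 3.96 to 4.72 and 1.40 to 2.05 in RPR2 lines. Across the 7 lines the log2 values of Fat3 correlated with those of Fat1 at r = 0.78, and those of Fat1 with those of Dchs2 at r = -0.80, as a description over 7 lines. These were the highest and the lowest r of all pairs of genes with enough regions, the others lying between -0.55 and 0.62. Both genes of a pair were read from the same libraries, whose numbers of peaks differed.

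**Figure D4:**
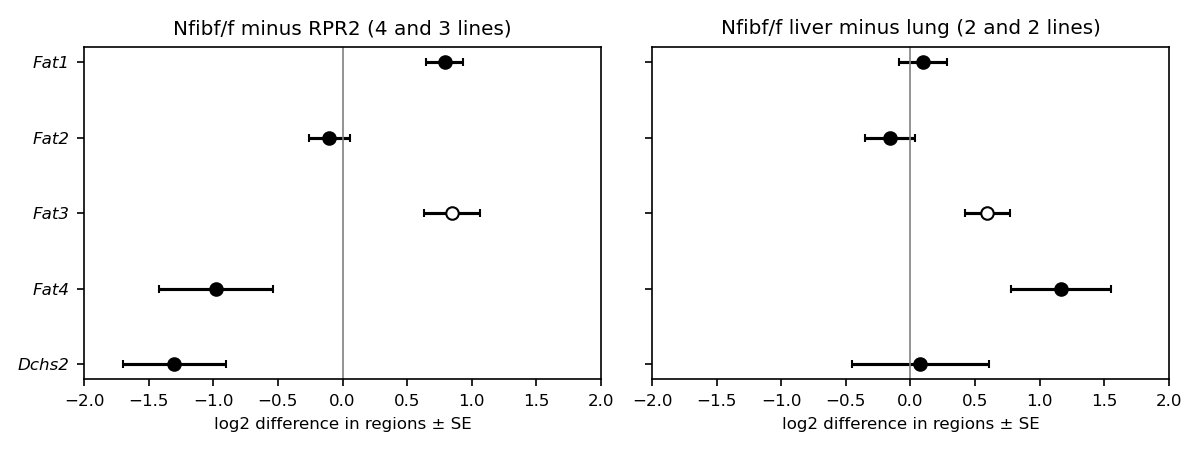
Log2 difference in scaled regions with its SE (horizontal axis) for the 5 genes averaging 3 or more regions, for Nfibf/f minus RPR2 (left, 4 and 3 lines) and for Nfibf/f liver minus lung (right, 2 and 2 lines). Fat3, drawn open, was chosen from these data and has no test; on the left only Fat1, at 0.79, was called, and on the right none of the filled points was.

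Liver metastasis lines were compared with lung tumor lines within the Nfibf/f genotype. None of the 4 relatives was called by limma, where 0.099% of all genes were. Of the 4, Fat4 alone was under the unadjusted limma threshold of 0.05, as were 454 of all 7070 genes. Fat4 had 6.5 and 2.5 regions in 1398M1 and 1399M4 and 1.0 and 2.0 in 1398P2 and 1399P1, and the log2 difference was 1.17 ± 0.39 (SE; limma adjusted p = 0.679). Its liver lines lay above its lung lines, as in 15% of genes. The difference was 2.04 without replicate 1 of 1398P2, 0.53 without line 1398M1 and 1.80 without line 1399M4. The differences of Fat1, Fat2 and Dchs2 were 0.09 ± 0.18, -0.16 ± 0.19 and 0.08 ± 0.53 (SE), with limma adjusted p values of 0.926, 0.926 and 0.988. For Fat3 the difference was 0.60 ± 0.18 (SE), and it was 1.10 without replicate 1 and 0.43 without replicate 2 of 1398P2.

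The local background of a library is the signal expected without a peak. As the 10th percentile within 500 kb of the gene, relative to the lowest background of the library, it was 1.00 to 1.06 at Fat3 in Nfibf/f and in RPR2 libraries. At Fat1 it was 1.00 to 1.16 in Nfibf/f and 1.00 in RPR2 libraries. At Fat4 it reached 1.24 in Nfibf/f and 1.00 in RPR2 libraries, and at Dchs2 1.43 and 1.05. At Fat2 it reached 2.04 and 1.28 and at Dchs1 1.77 and 1.00. Apart from that of Fat3, which was of replicate 1 of 1399P1, each of these highest Nfibf/f values was that of replicate 2 of 1398P2. Without it the highest Nfibf/f value was 1.03 at Fat1, 1.00 at Fat4, 1.00 at Dchs2, 1.06 at Fat2 and 1.16 at Dchs1, so that Dchs2 and Fat2 then lay below their highest RPR2 value. These values were taken at summits of peaks, which numbered 8 at Fat4 and 5 at Dchs2 in replicate 2 of 1398P2. Their medians were 1.05 to 1.81 in Nfibf/f and 1.31 to 2.38 in RPR2 libraries at Fat4, and 1.06 to 1.94 and 1.65 to 2.53 at Dchs2. At Fat1 the medians were 1.43 to 2.53 and 1.33 to 1.72, and at Fat3 1.68 to 2.41 and 1.67 to 2.36. At Fat2 they were 1.92 to 3.27 and 1.93 to 2.76, and at Dchs1 1.68 to 3.52 and 1.95 to 5.07. The part of the background in the differences between genotypes was not tested.

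Genes of the pathways around the cadherins were read from 4 lists. Of the planar cell polarity list, which holds the core proteins that orient cells in a sheet, 10 of 15 genes had enough regions, and none was called in either direction by limma in either comparison, with 0 at an unadjusted p under 0.05 in each. Of all 7070 genes, 1545 had such a p between genotypes and 454 between liver and lung lines. All 10 polarity genes had differences below 0 between Nfibf/f and RPR2, with a median of -0.156 against -0.001 over all genes. The smallest p values were those of the membrane protein Vangl1 (-0.25 ± 0.16, limma adjusted p = 0.382) and the scaffold Dvl1 (-0.22 ± 0.16, limma adjusted p = 0.455).

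Of the Hippo list 14 of 22 genes were tested, and Tead4, a DNA-binding partner of the growth effector Yap1, was the one called, as lower. It had 3.0, 3.0, 2.5 and 5.0 regions in 1398M1, 1399M4, 1398P2 and 1399P1, against 6.0, 8.5 and 6.0 in 1373M1, 12N1G and N2N1G. The groups did not overlap, as in 11.7% of genes with every Nfibf/f line below every RPR2 line. The log2 difference was -0.95 ± 0.18 (SE; limma adjusted p = 0.0437), where 0.438% of all genes were called lower. This call stood near the threshold: Tead4 was called in 11 of 32 alternatives, in 6 of 14 that left out a library and in 1 of 7 that left out a line, with limma adjusted p between 0.0263 and 0.188 and a negative difference in each. The libraries whose removal lost the call were both of 1398M1 and of 1399M4, replicate 1 of 1398P2 and of N2N1G, and replicate 2 of 1399P1 and of 1373M1. The median of the list was -0.024, with 6 of 14 differences above 0. Tead1, a relative of Tead4, had a difference of -0.41 ± 0.12 and Stk4 one of 0.41 ± 0.14 (SE; limma adjusted p = 0.108 and 0.142). With Tead4 they were the 3 Hippo genes at an unadjusted limma p under 0.05, as 1545 of all 7070 genes were.

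Among proteins reported to bind Fat tails, 7 of 15 were tested and none was called by limma, with a median of -0.013 and 1 gene, Homer3, at an unadjusted p under 0.05. Such a p was also that of 1545 of all 7070 genes. The synaptic scaffold Homer3 stood at -0.45 ± 0.18 and the actin regulator Cyfip2 at 0.44 ± 0.21 (SE; limma adjusted p = 0.185 and 0.249). Of 8 other large cadherins, all tested, Cdh1, the epithelial cadherin, was called higher (0.95 ± 0.17, limma adjusted p = 0.0433), as were 0.976% of all genes, and Pcdh15, a cadherin of hair cell links, had -1.04 ± 0.44 (limma adjusted p = 0.214). Cdh1 had 8.0, 11, 8.0 and 9.5 regions in 1398M1, 1399M4, 1398P2 and 1399P1, against 5.0, 3.5 and 5.0 in 1373M1, 12N1G and N2N1G, without overlap, as 8.71% of genes did with Nfibf/f above RPR2. Cdh1 was called in 20 of 32 alternatives, in 11 of 14 that left out a library and in 2 of 7 that left out a line, with limma adjusted p between 0.00947 and 0.186. Its call was lost without replicate 2 of 1398M1, replicate 1 of 1398P2 or replicate 2 of N2N1G, and the difference was above 0 in each alternative. The median of that list was 0.076. Between liver and lung lines none of the 39 tested genes of the 4 lists was called by limma, with list medians of 0.033, 0.005, -0.097 and 0.046 against -0.014 over all genes.

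An unadjusted p under 0.05 between liver and lung lines was seen for 1 Hippo gene, the kinase Stk3 (0.54 ± 0.22, limma adjusted p = 0.762), and for 2 cadherins, Pcdh15 (1.33 ± 0.40, limma adjusted p = 0.642) and the desmosomal Dsg2 (-0.62 ± 0.21, limma adjusted p = 0.683), each with its SE. Over all 7070 genes, 454 had such a p in this comparison. The next smallest p of the Hippo list was that of Ccn1, a secreted target of Yap1, at -0.44 ± 0.28 (limma adjusted p = 0.846). The polarity scaffolds Dvl1 and Dvl3 stood at -0.41 ± 0.18 and 0.28 ± 0.17 (limma adjusted p = 0.769 and 0.815). The actin regulators Wasf2 and Cyfip2 of the tail list stood at 0.40 ± 0.21 and 0.20 ± 0.18 (limma adjusted p = 0.815 and 0.923).

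**Figure D5:**
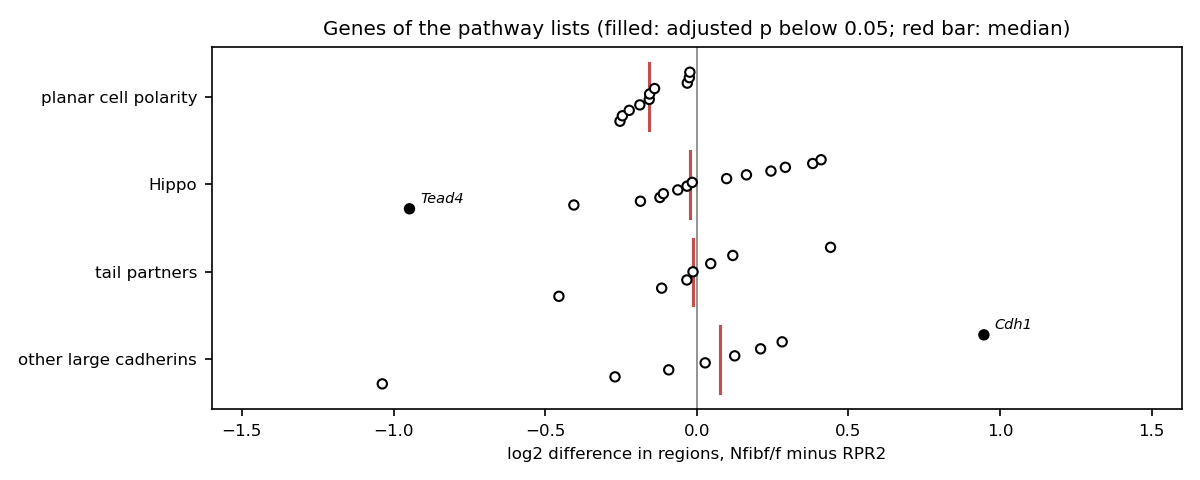
Log2 difference in scaled regions of Nfibf/f minus RPR2 (horizontal axis) for each tested gene of the 4 lists (rows), with called genes filled and the list median as a red bar. Tead4, at -0.95, and Cdh1, at 0.95, are the filled points, and the 10 planar cell polarity genes lie below 0.

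The genes whose regions followed those of Fat3 most closely over the 7 lines, leaving out genes within 5 Mb, were Prune2 (r = 0.99), Slc39a8 (0.98), Tmem117 (0.97), Aldh4a1 (0.97) and Tbccd1 (0.95). Prune2 had 17, 20, 10.5 and 16.5 regions in 1398M1, 1399M4, 1398P2 and 1399P1, against 9.5, 11.5 and 12.5 in 1373M1, 12N1G and N2N1G. For Fat1 the closest were Lrp6, a WNT co-receptor, Rbks and Lrrc49 (r = 0.99 each), for Fat2 Hip1r, Pitpnc1 and Pgbd5 (0.95 each), for Fat4 Mreg, Tcea3 and Ahnak (0.97 each), and for Dchs2 Slc6a2, the noradrenaline transporter, Matn2 and Cachd1 (0.99 each). These were picked as the highest of 7015 to 7064 correlations per gene across 7 lines and are a description. Within 1 Mb of Fat3 lay 11 protein-coding genes, 5 of which were tested and 0 called by limma between genotypes. Of these 5, Smco4 was the 1 gene at an unadjusted p under 0.05, as were 1545 of all 7070 genes. Its log2 difference was -0.66 (limma adjusted p = 0.166). The nearest, the melatonin receptor gene Mtnr1b, 35.6 kb away, had 2.0, 1.0, 1.0 and 1.5 regions in the Nfibf/f lines in the same order, against 0.5 in each RPR2 line, too few for the test.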

How the data were processed

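The deposited files were 1 narrowPeak list per library, 14 in all, with libraries not pooled by the authors. The tools named are MACS2, SAMtools, Picard, Bowtie2 and cutadapt 2.10, and the builds GRCm38 and mm10, per the submitters' processing notes. Read shifting and filters were not given in the sources used here. The fold enrichment deposited by the authors is a ratio to local background, and was used to rank peaks within a library. The authors also deposited a -log10 p-value and a -log10 q-value for each summit, with a lowest -log10 q of 1.30. The score deposited by the authors was not used. Coordinates are 1-based on GRCm38.

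Peaks overlapping by 1 bp were merged into 177684 regions, 119359 of them open in at least 1 line. The number of regions in a gene window was averaged over the 2 libraries of a line, scaled by the total of the line and, after adding 0.5, put on a log2 scale, which understates changes of genes with few regions. Genes averaging 3 or more regions, 7070 in all, were tested with limma 3.58.1 (trended empirical Bayes; R 4.3.3) at a Benjamini-Hochberg adjusted p of 0.05. It called 69 genes higher and 31 lower in Nfibf/f lines. Liver and lung lines were compared in a fit with 4 groups of genotype and site. Differences are Nfibf/f minus RPR2 and liver minus lung. Fold and p of a summit were solved for pileup and background under the Poisson model, and 99.8 to 100% of pileups came out whole within 0.02. The lists hold no read totals, so a peak can be absent for lack of depth. Scripts were tested on simulated data, and figures were drawn with matplotlib 3.10.9 under Python 3.11.15.

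The members, lists, motifs and rules for named genes were chosen with earlier results of these data known. All members were named, with regions at gene ends, regions open in every line of a genotype, of Nfibf/f liver, of lymph node or of lung and closed in all other lines, the 3 of highest mean rank, and others chosen after their values were seen. From each list the called genes, otherwise the 2 with the smallest p, were named, with Tead1 and, between genotypes, Stk4 and Pcdh15 in addition. Genes like a member were the 5 (Fat3) or 3 with the highest r. Pairing by replicate number was checked: over 21 pairs of lines the deviations of same-numbered libraries correlated at -0.095 to 0.113, and 2 pairs were over 0.1. Little sign of pairing by number was thus seen, and whether same-numbered libraries shared a batch was not tested. Alternatives were other filters, pseudocounts, windows, scalings, thresholds, overlaps, peak numbers, and leaving out libraries or lines.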

Additional observations from a re-analysis of the deposited data

How the results depend on the processing

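Between genotypes, Fat1 was the 1 relative called. The number called was 0 with the gene body alone, without scaling, with equal numbers of peaks per library (1 relative tested), without 1 Mb bins of raised background, with 12N1G and N2N1G averaged, and, added after the data were seen, with every region that had a peak in any library. It was 0 to 1 on leaving out single libraries or lines. The library losses were those of replicate 1 of 1398P2 (limma adjusted p = 0.186) and replicate 1 of 1373M1 (0.0510). The limma adjusted p of Fat1 was 0.0597 with the gene body, 0.0552 without scaling, 0.0943 with equal peaks, 0.0571 without raised bins, where fewer genes were tested, 0.154 with averaged node lines and 0.0530 with any-library regions, and the cause of each loss was not tested. Fat1 stayed called in 19 of 33 alternatives. Another fit took the single libraries as units, with the line as a block and the replicate number as a covariate, although little sign of pairing by number was seen. It kept 1 relative called (Fat1 0.79, limma adjusted p = 0.00775) and 0 between liver and lung. Between genotypes it called 206 genes higher and 136 lower, against 69 and 31. Its p values rest on libraries, whereas the main fit rests on lines. Over all genes limma called 24 higher and 31 lower with equal peaks, 1 and 1 with the gene body, and 327 and 117 with no minimum.

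The signs of Fat3, Fat4 and Dchs2 between genotypes held in every alternative that tested them. The sign of Fat2 turned without replicate 2 of 12N1G (0.020), without line 1373M1 (0.015) and with any-library regions (0.11), within -0.20 to 0.020 over left-out libraries and lines. Between liver and lung, where no relative was called in any alternative, Fat1 turned to -0.11 with equal peaks and -0.031 without 1399P1 (leave-out range -0.031 to 0.22), and Fat2 to 0.041 without 1398M1 (leave-out range -0.36 to 0.041) and 0.074 with any-library regions. Dchs2 turned to -0.14 without replicate 2 of 1399M4, -0.15 without replicate 2 of 1398P2, -0.027 without replicate 2 of 1399P1, -0.61 without line 1398M1 and -0.68 without 1398P2 (leave-out range -0.68 to 0.96). The count of Fat3 regions open in both Nfibf/f liver lines alone was 1 at a -log10 q of at least 3 and without replicate 2 of N2N1G. Replicate 2 of 1398P2 had the fewest peaks, and what depth limits was not tested.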
